A study of Mus musculus with 6 samples.

Results

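Chemokines are small secreted proteins that guide leukocytes, and they act through receptors with 7 membrane spans that couple to inhibitory G proteins. The genes described here are 3 receptors (Ccr1, Ccr2 and Cxcr4), 4 CC chemokines (Ccl3, Ccl4, Ccl6 and Ccl9) and Cklf, a chemokine-like factor with a MARVEL domain that is not a classical chemokine. They were taken by gene symbol from the array annotation, as 8 of 18193 genes and 20 of 45037 probe sets. The choice was made with the doxycycline differences and the differences between arrays already known, so their values are given as a description. Where limma calls of these genes are given, they are not evidence about the genes.

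The cells were Ba/F3, a BALB/c mouse line labelled as murine leukemia cells and grown with WEHI-3 culture supernatant, transduced with PAX5-KIDINS220 under a doxycycline-inducible (Tet-on) promoter. Both groups carried the construct. One group of 3 arrays came from cells without doxycycline and the other group of 3 from cells with 500 ng/mL for 24 h, and the stated purpose was to find pathways affected by the fusion. No cells with doxycycline but without the fusion construct were analysed here, so an effect of the drug cannot be told apart from one of the fusion. Separate cultures are not mentioned in the labels, so errors and p-values here describe how far these arrays differ, which may be technical variation only.

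The titles carry array codes that start with EA15 (1 array without and 1 with doxycycline) or EA20 (2 of each). The labels do not say what the codes mark, and these sets of arrays are named here by the start of the code. In EA20 the treated arrays have earlier codes than the untreated ones, so a difference that follows that order cannot be told apart from treatment. Every array had a 2%-trimmed mean signal of 500, and the median probe set signal was 56.5 to 65.9. The sets differed widely: 33.6% of genes differed between them (limma, adjusted p under 0.05). The Pax5 probe set 1421765_at lay between 3.76 and 20.3 on the 3 untreated arrays and between 94.2 and 119 on the 3 treated ones. The second Pax5 probe set, 1454401_at, had 23.9, 92.0 and 81.5 without and 51.7, 133 and 48.1 with doxycycline, which overlapped (0.21, SE 0.40). Whether either reads the fusion is not known here. Of the markers of this line, the interleukin-3 receptor genes Il3ra, Csf2rb and Csf2rb2 and the leukocyte gene Ptprc were bright on every array. Kit and Cd34 were dim, with a mean signal of 31.5 for Kit and at most 17.8 on any array for Cd34, and of the B-lineage markers only Cd79b had a mean above 100 (601).

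In leukocytes CCR1 and CCR2 are receptors for inflammatory chemokines: CCR1 binds CCL3, CCL6 and CCL9 among others, and CCR2 binds CCL2. CXCR4 binds CXCL12 and retains haematopoietic precursors in the bone marrow. Mouse Ccl6 and Ccl9 encode related chemokines of myeloid cells, while CCL3 and CCL4 are the macrophage inflammatory proteins that activated leukocytes secrete.

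With doxycycline, the brightest probe set of Ccr1 was lower and that of Cklf higher in both array sets, and Ccl9 was higher in EA20 by more than 2-fold but level in EA15. Signals were compared as log2(signal + 16), which understates differences of dim probe sets. In a limma fit of all genes with the array set as a block, 2 of the 8 genes were past an adjusted p of 0.05 (Ccr1, lower, and Cklf, higher), where 0.198% of all genes were, 0.148% higher and 0.0495% lower. In EA20 alone 3 were (these and Ccl9, higher), where 0.412% of genes were, 0.302% higher and 0.11% lower. Without the block limma called 0 of the 8 and 0% of all genes, of which 470 had an unadjusted p under 0.05. Leaving out any 1 of the 6 arrays ended the call of Ccr1 with the block, and leaving out any EA20 array that of Cklf. The genes were chosen with these results known, so the counts support nothing. With the block the median difference of the 8 genes was 0.26, against 0.00 over all genes.

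**Figure D1:**
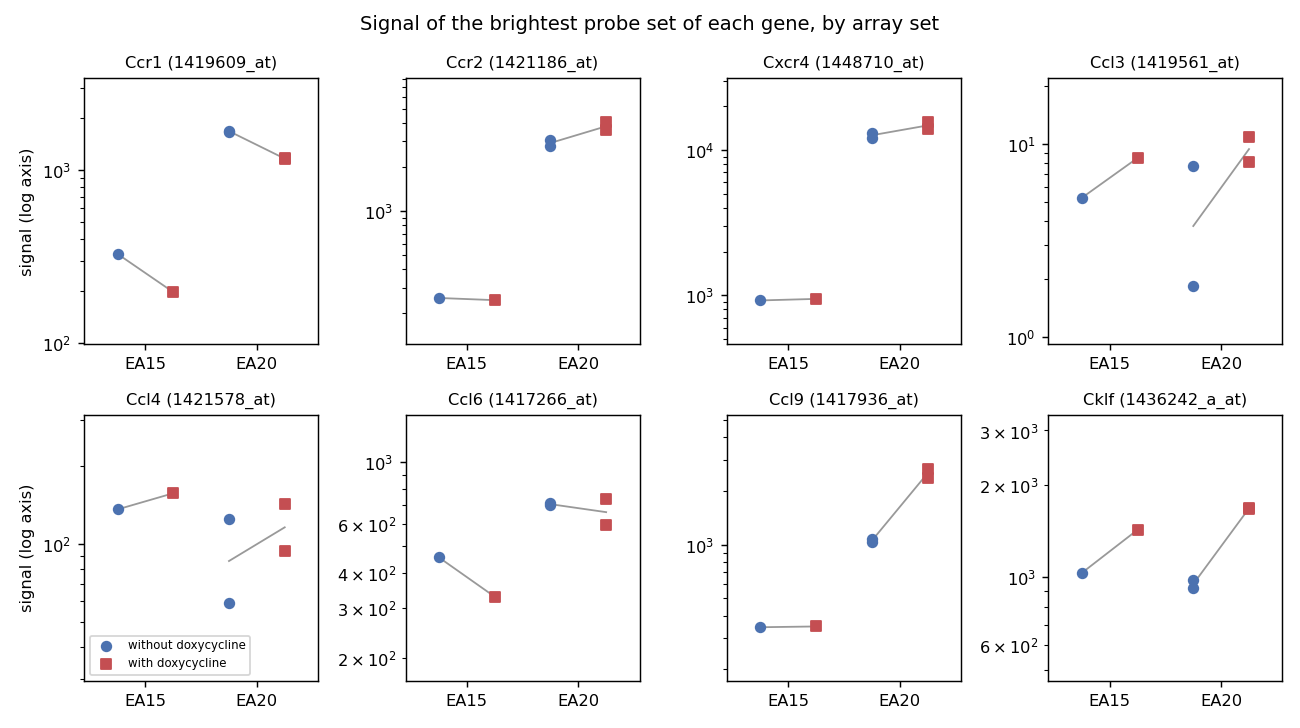
Signal of the brightest probe set of each gene (vertical log axis, arbitrary units, a scale for each panel) on the 2 arrays of EA15 and the 4 of EA20, as 1 point per array, with lines joining the geometric means. Ccr1, Ccr2, Cxcr4 and Ccl9 sit higher on every EA20 array than on either EA15 array, and the Cklf points with doxycycline lie above all those without.

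Ccr1 was measured by 2 probe sets. The brighter, 1419609_at, had a signal of 328 without and 197 with doxycycline in EA15. In EA20 it had 1694 and 1665 without and 1170 and 1160 with doxycycline. Within each set every treated array was below every untreated one, while over all 6 arrays the groups overlapped, since the untreated EA15 array was below the treated EA20 arrays. The log2 difference was -0.58 (SE 0.08 with the block), with -0.69 in EA15 and -0.52 in EA20. The treated level was thus 0.67 of the untreated one on the signal + 16 scale. The 2 EA20 arrays of a group differed by little (SD 20.5 without and 7.42 with doxycycline).

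The dimmer Ccr1 probe set 1419610_at disagreed between the sets. Its signals in EA20 were 223 and 250 without and 102 and 101 with doxycycline, a log2 difference of -1.10 (SE 0.22). In EA15 they were 20.1 without and 30.4 with doxycycline, a difference of 0.36 at levels close to the added 16. Both Ccr1 probe sets were therefore lower with doxycycline in EA20, and in EA15 only the brighter one was. With every gene taken as the mean of its probe sets, Ccr1 was no longer among the genes called with the block.

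Ccr2, the monocyte receptor for CCL2, had 4 probe sets. For the brightest, 1421186_at, EA15 gave 255 without and 246 with doxycycline. EA20 gave 2799 and 3045 without and 4030 and 3578 with it. The EA20 groups did not overlap, with a log2 difference of 0.38 (SE 0.09), and the EA15 difference was -0.05. Probe set 1421187_at had 1102 and 1238 without and 1654 and 1724 with doxycycline in EA20, a difference of 0.53 (SE 0.08), against -0.12 in EA15. Probe set 1460067_at differed by 0.27 (SE 0.10) in EA20 and 0.30 in EA15. For 1421188_at the EA20 groups overlapped, with 502 and 597 without and 939 and 562 with doxycycline, and the EA15 difference was -0.44. All 4 Ccr2 probe sets were thus higher on average with doxycycline in EA20 by 0.27 to 0.53, and in EA15 they lay between -0.44 and 0.30.

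Cxcr4 had the probe set 1448710_at. Its signals were 923 without and 946 with doxycycline in EA15. In EA20 they were 13098 and 12161 without and 14014 and 15520 with it. Treated arrays were higher in EA20 by 0.22 on the log2 scale (SE 0.09) and in EA15 by 0.03. The doxycycline difference of this gene was small beside its difference between the array sets, given further on.

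Ccr1 and Ccr2 are close neighbours on mouse chromosome 9, where the coding genes follow in the order Ccr1, Ccr1l1, Ccr3 and Ccr2 in the RefSeq annotation of GRCm38.p6. The 250 bases before their RefSeq start sites are shown because these neighbours differed in opposite directions with doxycycline in EA20. They run 5′ to 3′ on the strand of the gene, from chr9:123968693-123968942 (minus strand, Ccr1) and chr9:124101933-124102182 (plus strand, Ccr2), and capitals mark motif matches.
Ccr1: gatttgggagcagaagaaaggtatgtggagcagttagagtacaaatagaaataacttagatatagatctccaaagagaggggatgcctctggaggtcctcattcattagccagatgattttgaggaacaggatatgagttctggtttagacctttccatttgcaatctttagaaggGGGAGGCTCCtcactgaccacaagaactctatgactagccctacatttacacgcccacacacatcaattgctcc
Ccr2: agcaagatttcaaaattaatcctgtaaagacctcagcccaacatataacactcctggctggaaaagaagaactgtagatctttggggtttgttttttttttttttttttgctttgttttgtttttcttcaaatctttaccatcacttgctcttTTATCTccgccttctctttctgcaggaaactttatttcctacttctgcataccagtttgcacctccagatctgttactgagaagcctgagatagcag
A set of 6 letter patterns was searched on both strands. The PAX5 core GCGTGAC occurred in 1.78% of all 32851 RefSeq windows of this length, the PU.1 motif GAGGAAG in 10.6%, the GATA motif AGATAA in 9.99%, the C/EBP motif TTGCNNAA in 9.56%, the NF-kappaB motif (GGG and CC with any 5 bases between) in 45.8% and the AP-1 motif TGANTCA in 6.75%. The Ccr1 window held the NF-kappaB pattern from 74 to 65 bases before the start. The Ccr2 window held the GATA pattern on the opposite strand, from 97 to 92 bases before the start. The NF-kappaB and AP-1 patterns did not overlap each other in any window shown. A match is a description of these letters, not a binding site.

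Among the ligands, Ccl9 stood out in EA20. Ccl9 encodes MIP-1 gamma, a ligand of CCR1. In EA20 the untreated arrays gave 1034 and 1073 for probe set 1417936_at and the treated ones 2666 and 2377, a log2 difference of 1.24 (SE 0.08) or 2.37-fold. In EA15 it had 345 without and 348 with doxycycline, a difference of 0.01. By this difference in EA20 it ranked 111 of 18193 genes from the highest, and 3.36% of genes differed there by at least 2-fold in either direction. The second probe set, 1448898_at, gave the same picture. It had 709 and 716 without and 2023 and 1850 with doxycycline in EA20, a difference of 1.42 (SE 0.08), against 173 and 191 in EA15, a difference of 0.13. Between the sets the difference was larger in EA20 by 1.23 and 1.30 for these probe sets, which was not tested. Over both sets, with the block, the Ccl9 differences were 0.83 (SE 0.21) and 0.99 (SE 0.22).

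Ccl6, also known as C10, did not share this pattern. Its probe set 1417266_at had 456 without and 330 with doxycycline in EA15, a difference of -0.45. In EA20 it had 703 and 712 without and 736 and 596 with doxycycline, so that the groups overlapped (-0.09, SE 0.12). The second probe set, 1420249_s_at, was at -0.07 in EA15 and -0.24 (SE 0.16) in EA20, where 277 and 226 with doxycycline lay below 301 and 297 without.

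Ccl9 and Ccl6 are adjacent coding genes on chromosome 11, followed by Ccl3 and Ccl4 in the same annotation. Their windows of 250 bases are shown because these neighbours differed in EA20, from chr11:83578637-83578886 (Ccl9) and chr11:83593088-83593337 (Ccl6), both on the minus strand of GRCm38.p6 and printed on the strand of the gene. The same patterns were searched, with matches in capitals.
Ccl9: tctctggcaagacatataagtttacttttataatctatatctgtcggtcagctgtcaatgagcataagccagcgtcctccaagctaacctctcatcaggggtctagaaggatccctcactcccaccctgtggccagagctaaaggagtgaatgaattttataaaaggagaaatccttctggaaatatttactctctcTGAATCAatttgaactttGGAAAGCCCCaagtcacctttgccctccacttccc
Ccl6: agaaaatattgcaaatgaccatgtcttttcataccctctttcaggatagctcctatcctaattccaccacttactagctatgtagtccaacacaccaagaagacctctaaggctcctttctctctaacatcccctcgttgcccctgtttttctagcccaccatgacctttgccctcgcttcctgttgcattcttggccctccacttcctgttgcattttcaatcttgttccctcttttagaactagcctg
The Ccl9 window held an AP-1 pattern from 53 to 47 bases before the start and, on the opposite strand, an NF-kappaB pattern from 35 to 26 bases before it. The Ccl6 window held none of the 6 patterns, and neither did those of Ccl3, Cxcr4 and Cklf.

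Of the macrophage inflammatory protein genes, Ccl3 was dim and Ccl4 lay at percentile 60.2 of mean signal over all probe sets. The untreated arrays gave 5.26, 7.68 and 1.84 for Ccl3 (1419561_at) and the treated ones 8.45, 8.09 and 10.9, a mean of 4.92 ± 2.94 against 9.15 ± 1.53 (SD, n = 3 each). These groups did not overlap, but every value was below the added 16 and the mean was at the 6.84th percentile of all probe sets. Ccl4 (1421578_at) had 136, 124 and 59.2 without and 156, 93.8 and 142 with doxycycline, which overlapped, with means of 106 ± 41.2 and 131 ± 32.8 (SD, n = 3 each). Its difference was 0.30 (SE 0.29), about as large as its error.

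**Figure D2:**
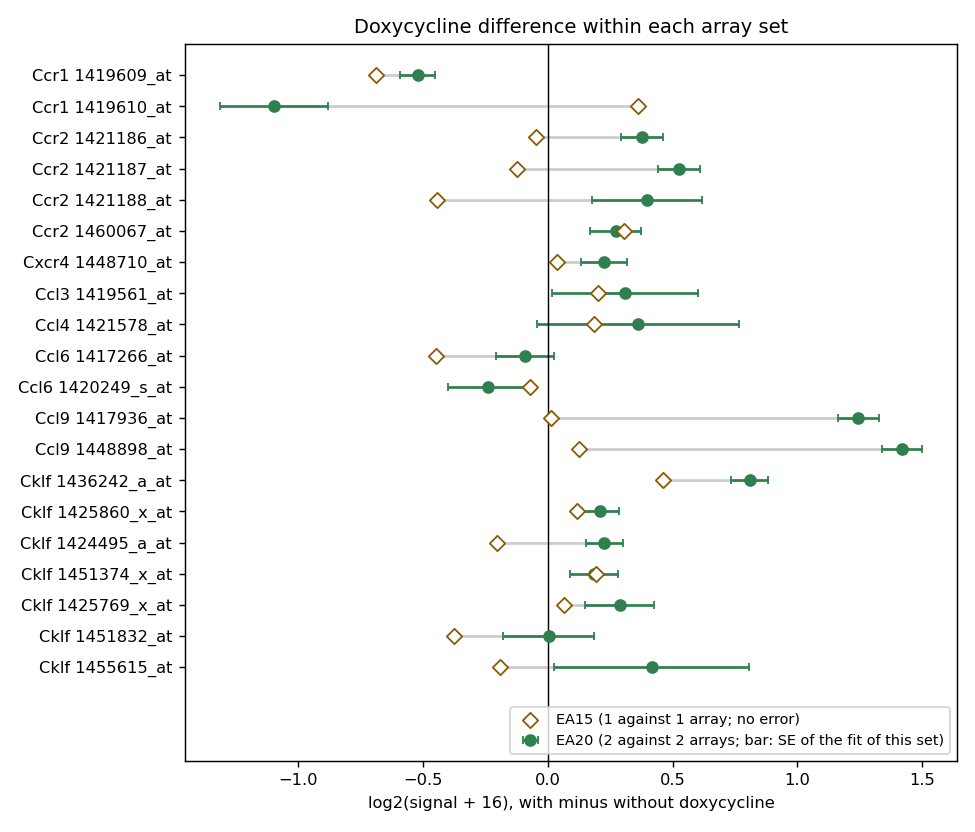
Difference with minus without doxycycline in log2(signal + 16) (horizontal axis) for the 20 probe sets, in EA15 (diamonds, 1 array against 1, no error) and EA20 (circles, 2 against 2, bars show the SE of the limma fit of EA20). The Ccl9 circles lie at 1.24 and 1.42 with diamonds at 0.01 and 0.13, and the brighter Ccr1 probe set lies below 0 in both sets.

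Cklf had 7 probe sets, which did not agree in size or, in EA15, in direction. For 1436242_a_at the signals were 1032 without and 1426 with doxycycline in EA15. In EA20 they were 980.5 and 919 without and 1666 and 1683 with doxycycline. The 3 treated arrays were above the 3 untreated ones, with a log2 difference of 0.69 (SE 0.08), 0.46 in EA15 and 0.81 in EA20. This probe set had the highest mean of the 7 and so stood for the gene in the counts above.

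The other 6 Cklf probe sets differed by -0.12 to 0.21 with the block. Close to it in brightness, 1425860_x_at and 1424495_a_at, were at 0.18 (SE 0.07) and 0.08 (SE 0.09). In EA20 1425860_x_at had 1216 and 1279 without and 1464 and 1427 with doxycycline, a difference of 0.21 (SE 0.07). Probe set 1424495_a_at was at 0.23 (SE 0.08) in EA20, but in EA15 it was lower with doxycycline (1094 without, 947 with, a difference of -0.20). Probe sets 1451374_x_at and 1425769_x_at were at 0.19 (SE 0.09) and 0.21 (SE 0.12). Probe set 1451832_at had 189 and 208 without and 208 and 190 with doxycycline in EA20, a difference of 0.00, and -0.38 in EA15. The dimmest, 1455615_at, was at 0.42 (SE 0.39) in EA20 and -0.19 in EA15. Leaving out 1451832_at, which was within 0.01 of 0 in EA20, the other 6 were positive there. In EA15 4 of 7 were positive. Which Cklf transcripts each probe set reads is not known here. Suffixes _a_at and _x_at mark probe sets that can read several transcripts of a gene or other sequences. Without all probe sets of the endings _s_at, _x_at and _a_at the remaining brightest one is 1451832_at, so that the difference of the gene turned to -0.12, and with the mean of all its probe sets Cklf was no longer among the genes called.

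**Figure D3:**
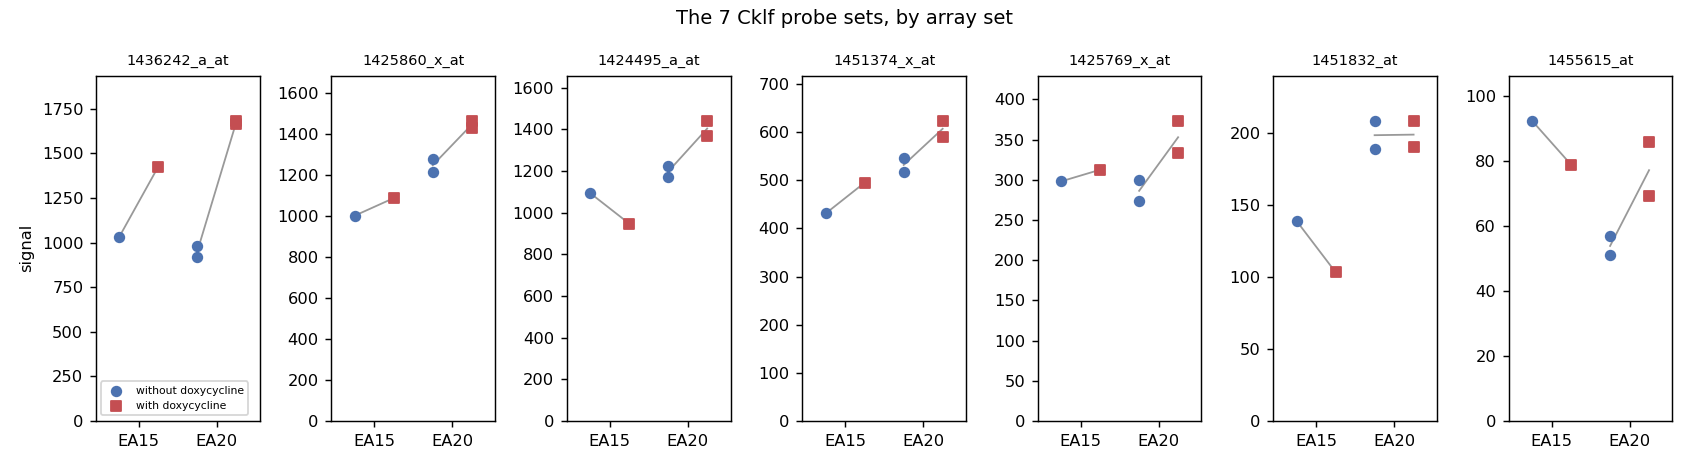
Signals of the 7 Cklf probe sets (vertical axis from 0, arbitrary units, a scale for each panel) on the 2 arrays of EA15 and the 4 of EA20, 1 point per array, with lines joining the geometric means. Only in 1436242_a_at and 1425769_x_at do all 3 points with doxycycline lie above all 3 without.

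Counted over all 20 probe sets, 16 had EA20 groups that did not overlap, where 40.4% of all probe sets had such groups, and 3 had groups of 3 arrays that did not overlap, where 7.73% had. The difference had the same sign in both array sets in 13 of the 20 probe sets. Over all genes, by their brightest probe set, the share was 53.8%, so the units differ here. Of these 20, 16 were positive in EA20, counting Cklf 1451832_at at 0.0027, and 11 in EA15. As the genes were chosen on this contrast, nothing is read from these counts.

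The array sets differed by more than the treatments in Ccr1, Ccr2, Cxcr4, Ccl6 and Ccl9, but not in Cklf 1436242_a_at or Ccl3. Of the 20 probe sets, 18 were higher on average in EA20, and in 15 all 4 EA20 arrays were above both EA15 arrays, where 21.9% of all probe sets were so separated. Cxcr4 had a mean of 935 in EA15 and 13698 in EA20, a log2 difference of 3.84 (SE 0.08) or 14.4-fold, ranking 13 of 18193 genes. Ccr2 (1421186_at) had 251 and 3363, a difference of 3.65 (SE 0.10) or 12.6-fold, ranking 18. Differences of at least 8-fold in that direction were seen in these 2 genes and in 0.209% of all genes, and of at least 4-fold in 4 of the 8 (with Ccr1 and Ccl9) and in 0.967% of all genes. Nothing is read from these ranks, counts and shares, as the genes were chosen with the set differences known. The other Ccr2 probe sets were at 3.51, 2.34 and 2.03, so the size of the Ccr2 difference ranged from 4.07-fold to 12.6-fold by probe set.

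Ccr1 was higher in EA20 by 2.39 (SE 0.08, 5.23-fold) by its brighter and 2.07 (SE 0.36) by its dimmer probe set. For the dimmer one it was 2.80 without and 1.34 with doxycycline, the latter also being the value without the untreated EA15 array. Ccl9 was higher by 2.18 (SE 0.22) and 2.59 (SE 0.23). For Ccl9 too this difference was not equal in the treatment groups: for 1417936_at it was 1.57 without and 2.80 with doxycycline. Ccl6 was higher by 0.79 (SE 0.12) and 0.53 (SE 0.15). The 3 receptors and 2 of the ligands, 5 of the 8 genes in all, were past an adjusted p of 0.05 between the sets, where 33.6% of genes were. As the choice of genes rested on this difference too, that count supports nothing. Ccl3 was at 0.00 (SE 0.26) between the sets and Ccl4 at -0.47 (SE 0.31). The Cklf probe sets disagreed here too: 1436242_a_at and 1425769_x_at were at 0.06, 1451374_x_at, 1424495_a_at and 1425860_x_at at 0.29 to 0.36, 1451832_at at 0.66 (SE 0.19) and 1455615_at at -0.33. The sign for Ccl3, Cklf 1436242_a_at and Cklf 1425769_x_at changed with the scaling of the arrays. The difference of all genes between the sets had a median of 0.04, which was -0.01 after quantile normalization and -0.08 after median centring.

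**Figure D4:**
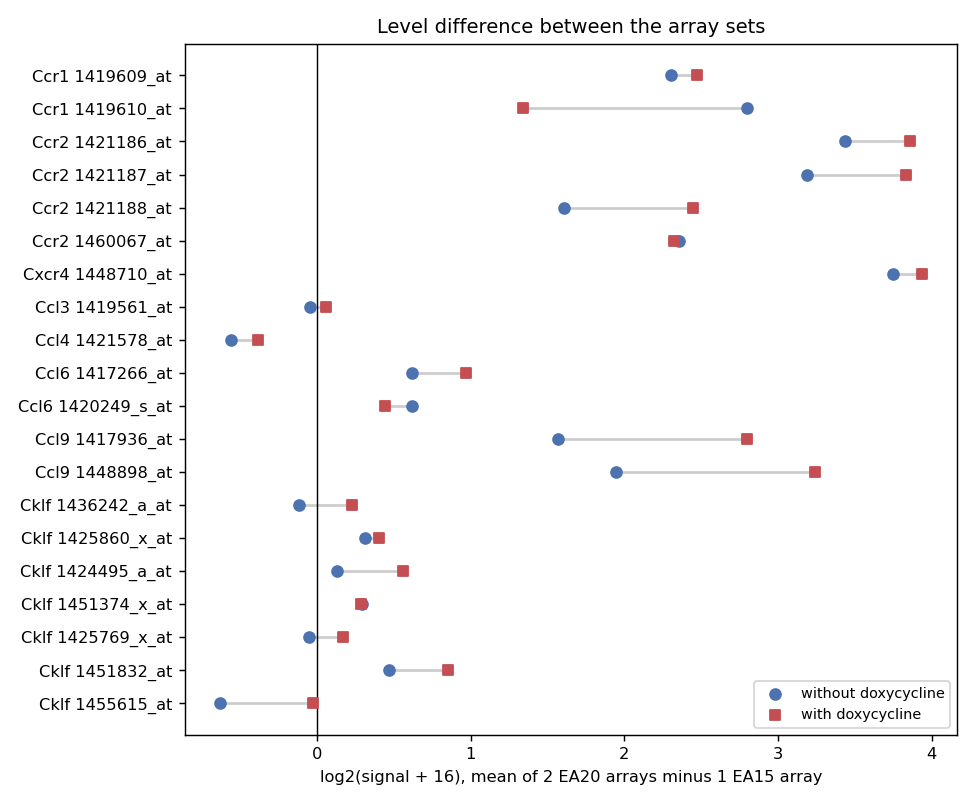
Mean of the 2 EA20 arrays minus the 1 EA15 array in log2(signal + 16) (horizontal axis) for the 20 probe sets, without doxycycline (circles) and with it (squares). Cxcr4 lies at 3.75 and 3.94 and Ccr2 1421186_at at 3.44 and 3.86, while Ccl3 lies near 0, and the Ccl9 squares lie to the right of the circles.

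Markers of other blood cells also differed between the sets, where 17.3% of all genes were higher and 16.3% lower in EA20 (limma adjusted p under 0.05). Higher were 3 of 4 eosinophil and 4 of 6 interleukin-3 line markers, with 0 lower. Of 8 macrophage and monocyte markers 3 were higher and 2 lower (Fcgr1 and Lyz2), and of 8 neutrophil markers 2 were higher and 2 lower. In bulk RNA, more cells of a type and more RNA per cell cannot be told apart. The summed signal of 4 measured eosinophil markers (Prg2, Epx, Siglecf and Il5ra) was 327 and 509.6 in EA15 and 16520 to 22880 in EA20. Prg2 alone made up 15410 to 20880 of the EA20 sums. Epx and Siglecf were higher in EA20 by 2.65 and 2.69 on the log2 scale, and Il5ra differed by 0.17 (SE 0.52). Of these 4, Siglecf and Prg2 rose with doxycycline (limma adjusted p 0.017 and 0.028, with the block), as 2 of 4, where 0.148% of all genes did. In EA20 alone Siglecf passed (limma adjusted p 0.022) and Prg2 did not (0.117). Neither passed without the block. Ms4a2 of the mast cell and basophil list also rose in EA20 alone (0.76, limma adjusted p 0.030), as 1 of 7, where 0.302% of all genes did. It was at -0.01 in EA15 and did not pass with the block (limma adjusted p 0.27). The summed signal of 8 macrophage and monocyte markers was 2057 and 2227 in EA15 and 1725 to 1922 in EA20, and 0 of 8 passed with doxycycline. Among them the M-CSF receptor gene Csf1r was at 128 and 115 in EA15 and 290 to 406 in EA20, and Fcgr1 at 771 and 754 in EA15 and 10.8 to 52.7 in EA20. The neutrophil list of 8 summed to 5261 and 5363 in EA15 and 7953 to 8612 in EA20, with members going both ways. Ngp was at 877 and 1025 in EA15 and 5060 to 5651 in EA20, while S100a8 was at 1500 and 1503 against 105 to 186 and S100a9 at 1297 and 1422 against 750 to 814. The sums were 312 and 404 against 1068 to 1388 for the mast cell and basophil list of 7, which rested on Ms4a2 and Cma1, and 204 and 189 against 439 to 513 for the T cell list of 6, which rested on Cd3g (36.0 and 6.68 against 241 to 382). No marker was listed at 0, though Cd14, Mrc1 and Il5ra had mean signals of 22.3, 27.3 and 22.9. The B-lineage list of 7 summed to 600 and 708 in EA15 and 796 to 917 in EA20. The part of these cells or programmes in the differences of Ccr1, Ccr2, Cxcr4 and Ccl9 was not tested.

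Genes with the most similar pattern over the 6 arrays were named for each gene by Pearson's r of log2(signal + 16) among 9062 genes with a mean signal of at least 100. For Ccr1 they were Ceacam1 (r = 0.9995) and Igf1r, the IGF-1 receptor gene (0.9985), for Ccr2 B2m (0.9998) and Crebrf (0.9997), and for Cxcr4 Sh3kbp1 and Man2b1 (0.9996 each). For Ccl9 they were the major vault protein gene Mvp (0.9995) and Cebpd (0.9989), which encodes the transcription factor C/EBP delta. In EA15 the Cebpd signal was 638 without and 667 with doxycycline, and in EA20 it was 1063 and 1124 on the untreated and 1641 and 1582 on the treated arrays. For Ccl6 the nearest were Brwd3 (0.9976) and Bbc3 (0.995), for Cklf Cemip2 (0.9957) and Wbp2 (0.9942), for Ccl3 Fam189a2 (0.9814) and Rhog (0.9749), and for Ccl4 Tnip1 (0.9843) and Tkt (0.9837). These values rest on 6 arrays in 2 sets that differ strongly, so genes that differ between the sets in the same direction correlate. Cklf, Ccl3 and Ccl4 were not called between the sets. For every gene the 2 highest r among 9062 candidates were taken, so a high r was selected for. The r values are a description.

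The rest of the chemokine system was covered by 4 lists of genes outside the 8. By limma with the block and p adjusted over all 18193 genes, 0 of 31 other ligands, 0 of 19 other receptors, 0 of 9 members of the CKLF-like MARVEL family and 0 of 34 receptor signalling genes passed, where 0.198% of all genes did. At an unadjusted limma p under 0.05 there were 0, 4, 0 and 7, where 2015 of all 18193 genes were. The median differences were 0.10, -0.05, 0.00 and 0.08, against 0.00 over all genes.

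Most other ligands were dim, with 3 of 31 above a mean signal of 100. These were Ccl25 (mean 243, difference -0.19, SE 0.20), Cxcl1 (136, 0.09, SE 0.27) and Cxcl16 (126, 0.42, SE 0.41). Those with the smallest p were Ccl2, the main ligand of CCR2 (1.17, SE 0.56), Ccl17 (-0.83, SE 0.40) and the platelet chemokine gene Pf4 (0.66, SE 0.38), with limma adjusted p of 0.49, 0.50 and 0.58. Cxcl12, the CXCR4 ligand, had signals of 2.82 to 44.5 with no order by group.

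Among the other receptors, Ccr3, the eotaxin receptor gene that lies between Ccr1 and Ccr2, was at 2.14 (SE 0.37) with a limma adjusted p of 0.077, at 1.40 in EA15 and 2.50 in EA20. The untreated arrays gave 4.11, 6.23 and 4.97 for Ccr3 and the treated ones 37.1, 137 and 81.7. The untreated signals were all below the added 16, so the size of this difference depends on that number. Ccr1l1, the neighbour of Ccr1 in the same cluster, was at -0.33 in EA15 and 0.65 in EA20. Ccr6 was at -1.24 (SE 0.35) and Cxcr2, a receptor of neutrophil chemokines, at 0.93 (SE 0.30), with limma adjusted p of 0.24 and 0.28. Cxcr2 had signals of 393 and 597 in EA15, and in EA20 of 95.5 and 34.4 without and 144 and 147 with doxycycline. The brightest were Ccrl2, Cxcr2 (mean 235.2) and Ackr4. Ccrl2 (mean 375), a chemerin-binding receptor without G protein signalling, was at 0.36 (SE 0.12), and Ackr4 (234), a scavenging receptor, at -0.05 (SE 0.17). None of these passed.

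In the CKLF-like family, whose genes Cmtm2a, Cmtm1, Cmtm2b and Cmtm3 follow Cklf along its chromosome, the bright members Cmtm7 (mean 16680) and Cmtm6 (1851), a regulator of PD-L1, were at 0.08 (SE 0.10) and 0.00 (SE 0.10). Cmtm5, Cmtm2a and Cmtm2b were dim or variable, at -0.20 (SE 0.24), -0.49 (SE 0.36) and -0.30 (SE 0.35). Of the receptor signalling genes, 31 of 34 had a mean signal above 100. Gnai2, the main inhibitory G protein subunit of leukocytes, was at 0.28 (SE 0.06), Rgs19, a regulator of G protein signalling, at 0.26 (SE 0.06) and Pik3cg, the PI3 kinase subunit driven by G protein subunits, at -0.51 (SE 0.12), with limma adjusted p of 0.13, 0.17 and 0.17. The sets were unequal for Pik3cg, at -0.98 in EA15 and -0.28 in EA20. The brightest, Coro1a, Rgs18 and Rac1, were at 0.15 (SE 0.07), 0.14 (SE 0.07) and 0.07 (SE 0.06). In EA20 alone 1 of the 34 rose, where 0.302% of all genes did: Rgs2, at 0.55 (limma adjusted p 0.034), while it was at -0.47 in EA15. Between the array sets 22 of the 34 were higher and 5 lower in EA20 (limma adjusted p under 0.05), where 17.3% and 16.3% of all genes were. Of the 19 other receptors 2 were higher and 3 lower. Of the 9 CKLF-like family genes 2 were higher (Cmtm6 and Cmtm7) and 0 lower, and of the 31 other ligands 0 were higher and 1 lower (Cxcl1).

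**Figure D5:**
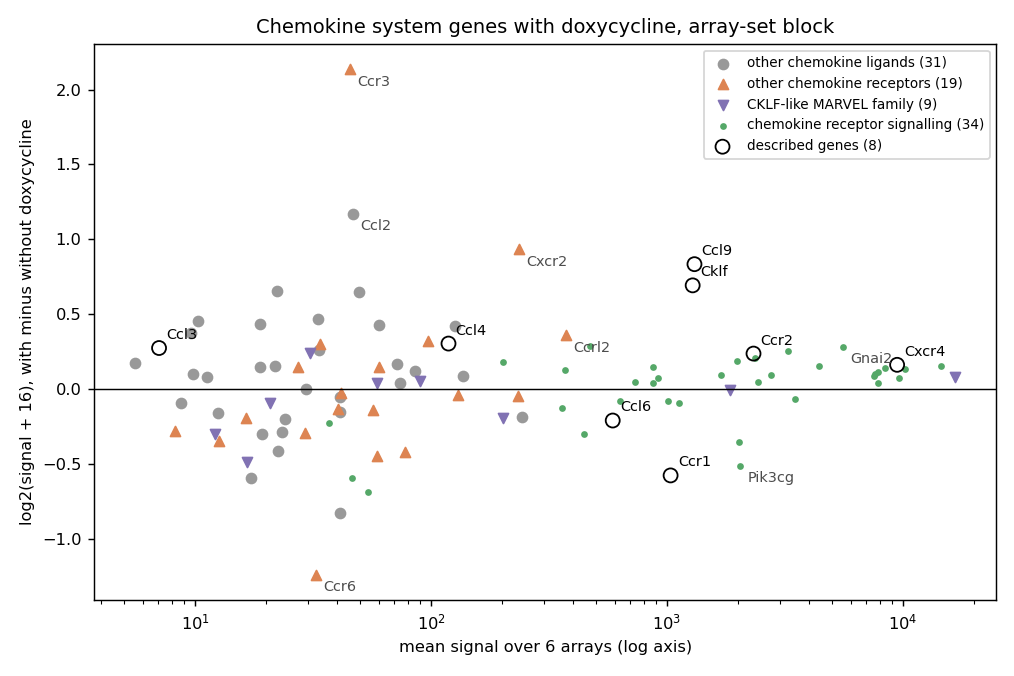
Difference with minus without doxycycline in log2(signal + 16), with the array-set block (vertical axis), against the mean signal over 6 arrays (horizontal log axis, arbitrary units), for the genes of the 4 lists and, circled, the 8 genes by their brightest probe set. The ligands sit mostly below a signal of 100, Ccr3 is highest at 2.14 with untreated signals below the added 16, and Ccr1 lies at -0.58, Ccl9 at 0.83 and Cklf at 0.69.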

How the data were processed

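RNA of 3 samples without and 3 with doxycycline was measured on Affymetrix arrays. The deposited values are linear signal intensities of probe sets. Per the submitters' processing notes the authors used Affymetrix Expression Console; which algorithm and version is not given in the sources used here. All arrays share a trimmed mean of 500 in the deposited intensities, so differences in total mRNA per cell are lost. No detection calls were used here, and the number of arrays limits the precision.

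The table held 45101 probe sets, 64 of them controls. Of the rest, 34945 had 1 gene symbol in the platform annotation, 932 had several and 9160 were not listed; an update through Entrez identifiers altered 0 symbols. A gene was represented by its brightest probe set, and the values of single probe sets came from a fit of all 45037. The model was limma 3.58.1 in R 4.3.3 (lmFit, eBayes with a trend) on log2(signal + 16), with doxycycline and array set as terms, two-sided, with Benjamini-Hochberg adjustment. Differences in EA20 came from a fit of those 4 arrays. The 8 genes and the lists were chosen with earlier results of these data known. List genes were named if called, and otherwise as the 3 with the smallest p and the 3 brightest of each list. Cxcl12, Ccr1l1 and Rgs2 were added with their values in view, as were the markers named. Ccl19, Ccl21a, Ccl26, Cxcr1 and Grk2 had no probe set with 1 symbol. Sequences are from RefSeq (GRCm38.p6), where all 8 genes were in the gene table and 7 had a promoter window, all but Ccl4. On simulated data for the doxycycline comparison with the block (18193 genes), the fit found 38.8% of genes altered 1.5-fold, 62.7% of those altered 2-fold and 92.4% of those altered 4-fold. The alternatives tried are given with their effect at the end of the text.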

Additional observations from a re-analysis of the deposited data

Results flagged for a closer look

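In 5 probe sets the EA20 arrays with doxycycline all lay on one side of those without, while the EA15 pair went the other way. The array sets are not groups of the study, and the difference between them was not tested. The doxycycline difference in EA20 minus that in EA15, on the log2 scale, was -1.46 for Ccr1 1419610_at, 0.42 for Ccr2 1421186_at, 0.65 for Ccr2 1421187_at, 0.43 for Cklf 1424495_a_at and 0.61 for Cklf 1455615_at. The signals of Ccr1 1419610_at in EA15 were 20.1 and 30.4, and those of Cklf 1455615_at were under 100 on all 6 arrays, so both rest on dim values. The 2 Ccr2 probe sets were above 100 on every array, but EA15 holds 1 array per group and gives no error.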

How the results depend on the processing

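With the block 27 genes were higher and 9 lower with doxycycline. Both counts were 0 without the block and 0 without the mean-variance trend. They were 55 and 20 in EA20 alone, 41 and 20 with a pseudocount of 1, 17 and 5 with 64, 80 and 50 when the dimmest 40% of genes were dropped, and 8 and 5 when a gene was the mean of its probe sets. With 1 array left out there were 0 to 46 higher and 0 to 15 lower genes, with 0 without untreated replicate 3 or treated replicate 2. List genes called higher numbered 0, and 1 in EA20 alone or 0 to 1 with 1 array left out, where the 1 came without either EA15 array. Between the sets, 3148 genes were higher and 2959 lower in EA20, and 6043 and 5133 as probe sets; the causes of these shifts were not tested, apart from the larger number of probe sets. Ccr1 was called in 7 and Cklf in 8 of 16 alternatives, Ccr1 in none that left out an array and Cklf in those without either EA15 array. Ccl9 was called in EA20 alone and without either EA15 array, which leaves only EA20 to set the difference. Of 660 values of the 20 probe sets over the alternatives, 137 moved by more than the SD within EA20 and 20 changed sign, and none of those 20 was of Ccr1, Cxcr4 or a Ccl9 probe set except Ccl9 1417936_at in EA15 with median centring. Some of the 660 could not move by this measure. The 80 EA20 differences with 1 EA20 array left out cannot shift by more than that SD. The 20 differences without the block equal those with it, so the share moved understates how far the values depend on the settings. Without detection calls, little can be said of Ccl3 and other dim probe sets.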
